A study of Mus musculus with 6 samples.

Results

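Small nucleolar RNA (snoRNA) host genes were examined in bulk RNA-seq of sorted mouse tumor γδ T cells. The members were 8 noncoding genes taken by name, Gas5, Snhg1, Snhg3, Snhg5, Snhg6, Snhg8, Snhg12 and Zfas1, out of 53153 gene symbols in the count table. A host gene is transcribed and spliced like an mRNA, but its product of interest sits in the introns, from which each snoRNA is trimmed. Many snoRNAs then guide the chemical modification of ribosomal RNA. Of these guides, C/D box snoRNAs direct methylation of the ribose and H/ACA box snoRNAs direct conversion of uridine to pseudouridine. The spliced exons that remain usually encode no conserved protein, and many are destroyed by nonsense-mediated decay once ribosomes meet an early stop codon, so their level depends on decay as well as on transcription. Many host transcripts begin with a 5′ terminal oligopyrimidine (TOP) tract, which they share with the mRNAs of ribosomal proteins and elongation factors and which places translation under the control of mTORC1 and LARP1.

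To ask how imatinib acts on γδ T cells early in treatment, the study compared 3 libraries from imatinib-treated mice with 3 from vehicle-treated mice. All animals were KitV558del/+ on C57BL/6J, which carry an activated receptor tyrosine kinase Kit in the germ line and develop an intestinal gastrointestinal stromal tumor (GIST), and were 8 to 10 weeks old. Imatinib inhibits KIT and a few other kinases, and treated mice drank water that held 600 mg/L of it over 1 week. Cells were sorted from the tumor as positive for CD45, CD3 and TCRγδ and negative for NK1.1. No tumor-free mouse or other tissue serves as a baseline. The series text differs and speaks of regulatory T cells, taken from both tumor and draining node. The labels give all 6 libraries the same batch and do not say that each came from a separate mouse, so the tests measure the spread between libraries, which may be technical.

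Libraries held 21333897 to 23013208 counts of named genes on imatinib and 21493848 to 25214210 on vehicle, spread over 19567 to 20669 genes with any count on imatinib and 22390 to 23513 on vehicle, with no overlap. Trdc, which encodes the constant region of the TCRδ chain, was at 1237, 850 and 1038 CPM (counts scaled by TMM to a common library total, the unit of levels throughout) in imatinib 1, 2 and 3, against 505, 673 and 373 in vehicle 1, 2 and 3, whereas Foxp3, which defines regulatory T cells, did not exceed 0.775 CPM in any library. Other cells contributed RNA. The macrophage gene C1qa was at 1092 to 2435 CPM on imatinib and at 2461 to 3128 on vehicle. The 10 T cell markers summed to 2198 to 3104 CPM on imatinib, against 1092 to 1899.5 on vehicle, and 6 of them passed the test as higher. The 12 macrophage markers summed to 6250.4 to 11673 CPM on imatinib, against 10496 to 13806 on vehicle. Of these, Mrc1 and Lyz2 were higher by the test and the other 10 did not pass it. The 10 neutrophil markers summed to 134 to 401 CPM on imatinib and to 91.6 to 142 on vehicle with no member called. Of the 6 tested, S100a8, S100a9, Cxcr2, Retnlg and Mmp9 lay higher on imatinib with no overlap, whereas Csf3r overlapped. Among all genes tested 17.5% lay apart above. S100a8 averaged 28.6 ± 30.8 CPM on imatinib and 3.32 ± 1.65 on vehicle (SD, n = 3 each). The median log2 fold change of the 6 was 2.76. Camp, Ltf, Ngp and Ly6g, granule and surface genes of that lineage, averaged at most 0.346 CPM in either group. The 9 fibroblast markers summed to 1004 to 1691 CPM on imatinib and to 499.5 to 703 on vehicle, and of these Fn1 and Thy1 were higher by the test. Thy1, which mouse T cells also carry, was at 860, 582 and 768 CPM in imatinib 1, 2 and 3, against 394, 428 and 308 in vehicle 1, 2 and 3, and the other 8 summed to 831, 422 and 689 CPM in imatinib 1, 2 and 3, against 106, 275 and 239.7 in vehicle 1, 2 and 3. The 7 markers of GIST and interstitial cells of Cajal summed to 128 to 385 CPM on imatinib and to 55.5 to 67.3 on vehicle, with Kit, Etv1 and Gja1 higher by the test. The 9 B and plasma cell markers ran from 18837 to 28054 CPM on imatinib and from 3829 to 27304 on vehicle, with none called. None of the 6 marker lists had a gene at 0 in every library. Over all genes tested, 6.15% were higher and 8.42% lower by the test. In such bulk samples fewer cells of a type and less RNA per cell cannot be told apart, and the part of these shifts in the host gene values was not tested.

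The first sequences shown are the start sites of 5 members, because the TOP class is defined there. RefSeq (GRCm38.p6) annotates 8 starts for 7 of the members, and for Snhg6 no window was used. Each window runs from 20 bases before to 30 bases from the annotated start, and capitals mark the longest run of C and T near it. Gas5 has 2 annotated starts, of which the second is printed at chr1:161035146-161035195 on the plus strand. The windows of Snhg1 (chr19:8723467-8723516, plus), Snhg8 (chr3:123508307-123508356, minus), Snhg12 (chr4:132308658-132308707, plus) and Zfas1 (chr2:167062914-167062963, plus) follow.
Gas5: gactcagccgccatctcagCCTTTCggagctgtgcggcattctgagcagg
Snhg1: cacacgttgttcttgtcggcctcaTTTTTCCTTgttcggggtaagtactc
Snhg8: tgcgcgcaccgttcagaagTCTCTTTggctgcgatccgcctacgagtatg
Snhg12: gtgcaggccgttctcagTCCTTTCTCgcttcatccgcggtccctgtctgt
Zfas1: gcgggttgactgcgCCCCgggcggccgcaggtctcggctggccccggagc
A run of at least 5 C or T bases in any mix was sought on the transcribed strand. It had to hold, begin or end within 5 bases of the start, so it could begin further upstream. Such a run was present at 5 of the 8 member starts (62.5%). The same was found at 35 of 68 starts of ribosomal protein genes (51.5%) and at 10795 of all 32851 annotated starts (32.9%). At Gas5 and Snhg8 the run began 1 base before the annotated start, at Snhg12 it began 3 bases before it and at Snhg1 it began at position 5 after it. The Zfas1 window and the first Gas5 window held no such run, and at Snhg5 a run of 7 began 8 bases from the start. These matches describe letters near annotated starts, which may differ from the starts used in these cells.

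The second set shows the cargo, because the snoRNAs are the known product of these loci. GENCODE M21 (GRCm38) places 30 snoRNA names inside the 8 members: 9 in Gas5, 8 in Snhg1, 4 in Snhg12, 3 in Zfas1, 2 each in Snhg3 and Snhg5, and 1 each in Snhg6 and Snhg8. One C/D box snoRNA is printed for each of 5 hosts on the strand of the host, with capitals marking TGATGA, the core of box C, and CTGA, box D. They are Snord47 of Gas5 (chr1:161038082-161038158, plus), Snord50a of Snhg5 (chr9:88521529-88521600, minus), Snord87 of Snhg6 (chr1:9942463-9942549, minus), Snord99 of Snhg12 (chr4:132310691-132310764, plus) and Snord12 of Zfas1 (chr2:167065276-167065365, plus).
Snord47: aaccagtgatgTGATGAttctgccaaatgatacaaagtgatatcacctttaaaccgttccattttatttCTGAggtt
Snord50a: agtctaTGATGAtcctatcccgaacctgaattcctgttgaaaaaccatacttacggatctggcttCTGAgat
Snord87: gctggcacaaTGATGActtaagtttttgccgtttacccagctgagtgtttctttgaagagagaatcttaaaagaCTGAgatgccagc
Snord99: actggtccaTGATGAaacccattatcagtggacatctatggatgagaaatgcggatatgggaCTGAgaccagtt
Snord12: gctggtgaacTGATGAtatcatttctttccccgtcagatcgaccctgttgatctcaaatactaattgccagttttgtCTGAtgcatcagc
TGATGA was sought in the first 20 bases and CTGA in the last 20, on the transcribed strand. Both boxes were held by 19 of the 30 names. Of all 1507 snoRNA genes in the annotation, 309 (20.5%) held both. Those are counted by gene rather than by name, and the mix of box classes was not matched. Snora24 of Snhg8, Snora73a and Snora73b of Snhg3, and Snora16a, Snora44 and Snora61 of Snhg12 are H/ACA box snoRNAs and held neither by this search. The count table has rows for 29 of the 30 names, and each of the 29 was at 0 in all 6 libraries. The libraries were made from polyA RNA, and only Snora73b and Snord87 lie clear of annotated exons of their host, so these zeros do not measure the snoRNAs. The values below are those of the host transcripts.

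Gas5 had the highest count of the members in every library and, per kilobase of annotated exon, shared the top of the order with Snhg8. On imatinib, Snhg8 was at 19.7 ± 2.98 CPM per kb and Gas5 at 19.2 ± 4.58 (SD, n = 3 each). On vehicle, Gas5 was at 22.3 ± 1.13 CPM per kb and Snhg8 at 14.7 ± 1.08. Zfas1 followed at 9.78 ± 2.53 CPM per kb on imatinib and 11.7 ± 3.35 on vehicle, and Snhg6 at 5.80 ± 1.38 on imatinib and 7.44 ± 1.75 on vehicle. Snhg12, Snhg5 and Snhg1 lay close together, at 3.44 ± 1.53, 2.81 ± 0.769 and 2.63 ± 0.325 CPM per kb on imatinib and at 4.92 ± 0.528, 4.10 ± 1.51 and 4.23 ± 0.464 on vehicle. On vehicle Snhg12 stood above Snhg1 by more than either SD, while Snhg5 lay within its SD of both, and on imatinib the means of the trio lay within the SD of Snhg12. The exon lengths join all annotated isoforms, including those that retain introns, so the level of an isoform may be higher than its gene's value.

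Of the 7 members that passed the filter on low counts, 1 was lower on imatinib and none was higher by edgeR's quasi-likelihood test at an adjusted p under 0.05, against a background of 8.42% of 16621 genes lower and 6.15% higher. At an unadjusted p under 0.05 by edgeR, 1 member was lower and 1 was higher. At an adjusted p under 0.05, DESeq2 and limma voom each called 1 member, a lower one. The log2 fold changes of 6 members were below 0, with a median over the 7 of -0.36 beside 0.01 over all genes tested. The split over all genes was 1022 higher and 1399 lower, or 763 and 1608 scaled to library totals and 135 and 4678 scaled to the CD3 genes Cd3d, Cd3e and Cd3g. In either direction 14.6% of genes passed, so 1 of 7 members is a share like that of other genes. The groups did not overlap for 2 of the 7, with Snhg1 below and Snhg8 above, while among all genes tested 20.2% lay apart below, 17.5% lay apart above and 37.7% did so in either direction.

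**Figure D1:**
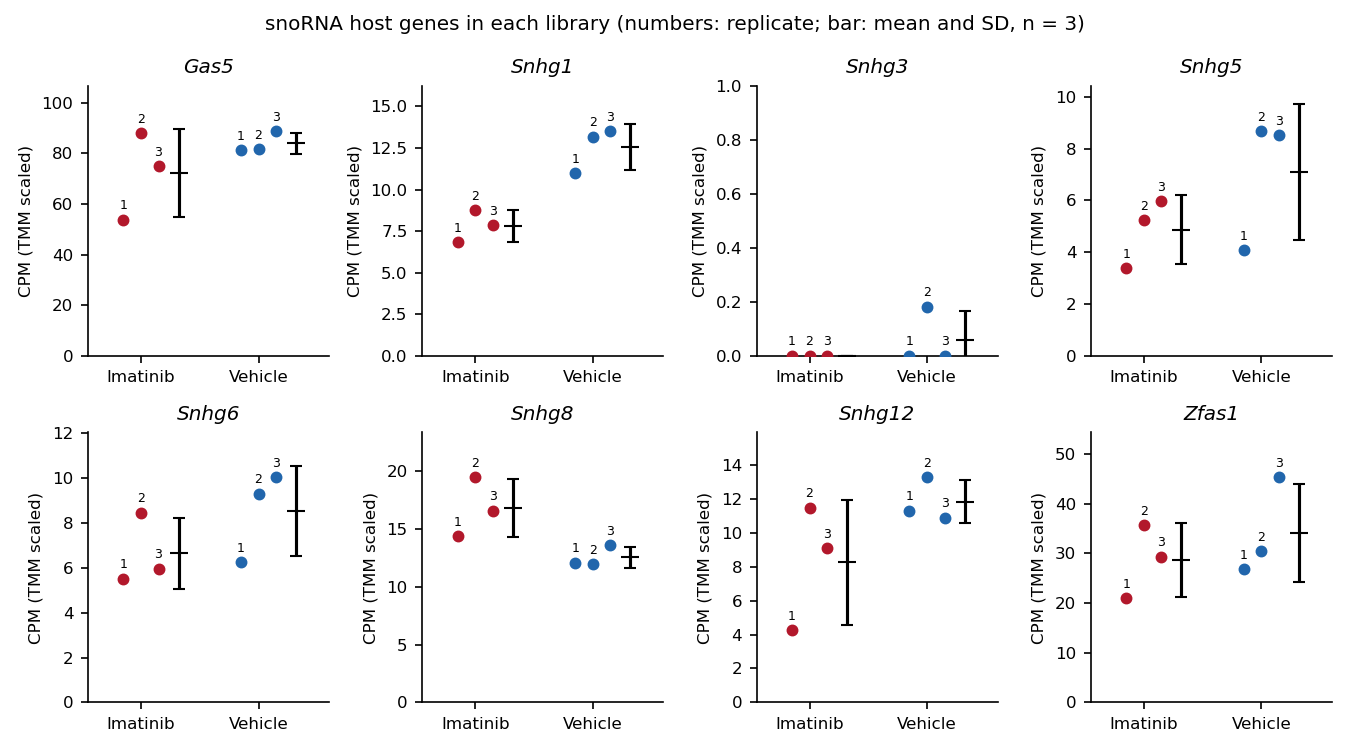
Level of each of the 8 host genes in CPM after TMM scaling (vertical axes from 0), with imatinib libraries left of vehicle libraries, the replicate number above each point and the mean with its SD (n = 3) beside each group. Snhg1 lies between 6.83 and 8.76 CPM on imatinib and between 11.0 and 13.5 on vehicle, Snhg8 is the member whose imatinib libraries all lie higher, and the other 5 tested members overlap.

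Snhg1 fell to 0.622 of its level on vehicle. Its gene, at chr19:8723475-8726443, hosts Snord22 and 7 other snoRNAs and is the locus long known as the U22 host gene. It was at 6.83, 8.76 and 7.84 CPM in imatinib 1, 2 and 3, against 11.0, 13.2 and 13.5 in vehicle 1, 2 and 3. The highest imatinib library lay below the lowest vehicle library. The log2 fold change was -0.69 ± 0.19 (SE, edgeR adjusted p = 0.044), from 151 to 177 counts per imatinib library and 269 to 314 per vehicle library. The call rests on single libraries: the adjusted p was 0.103 without imatinib 1, 0.105 without imatinib 3, 0.0739 without vehicle 1, 0.13 without vehicle 2 and 0.137 without vehicle 3, while it was 0.0351 without imatinib 2, and the log2 fold change stayed between -0.80 and -0.60.

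Snhg8 went the other way. This short gene at chr3:123507552-123508404 hosts the H/ACA box snoRNA Snora24. Its level was 14.4, 19.4 and 16.6 CPM in imatinib 1, 2 and 3, against 12.1, 11.9 and 13.6 in vehicle 1, 2 and 3. All imatinib libraries lay above all vehicle libraries. The log2 fold change of 0.42 ± 0.17 (SE) did not pass the test (edgeR adjusted p = 0.122), and scaled to the counts of the CD3 genes it was -0.30. As a share that no scaling can move, Snhg8 had 15.2, 12.3 and 12.4 counts per 100 counts of the other tested members in imatinib 1, 2 and 3, and 8.59, 7.63 and 7.68 in vehicle 1, 2 and 3. The ratio was chosen after the values were seen and is given with no test.

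Gas5, at chr1:161034422-161038539, is named for its rise in growth-arrested mouse cells and in human cells is known as a decoy of the glucocorticoid receptor. It was at 53.9, 88.0 and 75.0 CPM in imatinib 1, 2 and 3, against 81.2, 81.8 and 88.9 in vehicle 1, 2 and 3. The groups overlapped through imatinib 2, which reached the vehicle range, while imatinib 1 was the lowest of all 6. The log2 fold change was -0.22 ± 0.17 (SE, edgeR adjusted p = 0.422), and -0.04 without imatinib 1 and -0.40 without imatinib 2.

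Zfas1, at chr2:167062934-167065862, is the noncoding neighbour of Znfx1 and hosts the Snord12 group. It was at 20.9, 35.7 and 29.3 CPM in imatinib 1, 2 and 3, against 26.8, 30.4 and 45.3 in vehicle 1, 2 and 3. Vehicle 3 stood above all other libraries and the rest overlapped. On the log2 scale the change was -0.25 ± 0.25 (SE, edgeR adjusted p = 0.534), and 0.00 without vehicle 3, -0.07 without imatinib 1, -0.47 without imatinib 2 and -0.42 without vehicle 1.

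Snhg12, at chr4:132308623-132311024, hosts both classes of snoRNA, with Snora16a, Snora44, Snora61 and Snord99 inside it. It was at 4.25, 11.5 and 9.09 CPM in imatinib 1, 2 and 3, against 11.3, 13.3 and 10.9 in vehicle 1, 2 and 3. Imatinib 1 was far below the other 5 libraries, and imatinib 2 lay within the vehicle range. The log2 fold change was -0.52 ± 0.33 (SE, edgeR adjusted p = 0.327), and -0.20 without imatinib 1 and -0.85 without imatinib 2.

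Snhg5, at chr9:88521050-88522929, hosts the twin snoRNAs Snord50a and Snord50b. It was at 3.39, 5.24 and 5.97 CPM in imatinib 1, 2 and 3, against 4.08, 8.68 and 8.52 in vehicle 1, 2 and 3. Vehicle 1 fell inside the imatinib range, and the other vehicle libraries lay above it. Its log2 fold change was -0.54 ± 0.35 (SE, edgeR adjusted p = 0.332), but -0.34 without imatinib 1 and -0.84 without vehicle 1.

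Snhg6, at chr1:9941959-9944118, hosts Snord87. It was at 5.51, 8.46 and 5.97 CPM in imatinib 1, 2 and 3, against 6.24, 9.31 and 10.03 in vehicle 1, 2 and 3, so that vehicle 1 again lay inside the imatinib range. On the log2 scale the change was -0.36 ± 0.27 (SE, edgeR adjusted p = 0.396), but -0.59 without imatinib 2, -0.56 without vehicle 1 and -0.23 without vehicle 3. The antisense neighbour Mcmdc2 shares 11.1% of its exon bases and did not exceed 0.367 CPM.

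Snhg3, at chr4:132348014-132353686, host of Snora73a and Snora73b, was close to absent from the table. It had 0 counts in every imatinib library and in vehicle 1 and 3, and 4 counts in vehicle 2, and was not tested. The annotation shares 83.3% of its exon bases with Rcc1 and Gm17300, 13.7% on the same strand and 71.5% on the opposite one. Reads from shared bases cannot be told apart between these genes, so the zeros are no measure of Snhg3. Rcc1, which encodes the nucleotide exchange factor of the GTPase Ran, was at 21.3, 20.1 and 17.8 CPM in imatinib 1, 2 and 3, against 22.5, 24.3 and 25.1 in vehicle 1, 2 and 3 (log2 fold change -0.28, edgeR adjusted p = 0.183).

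Within the imatinib group the libraries ranked alike for most members. Imatinib 1 was the lowest imatinib library for all 7 tested members, from Snhg5 at 3.39 CPM to Gas5 at 53.9, and imatinib 2 was the highest for every member except Snhg5. The summed level of the 8 members was 109, 177 and 150 CPM in imatinib 1, 2 and 3, against 153, 169 and 191 in vehicle 1, 2 and 3. Imatinib 1 was also the library with the highest Trdc, at 1237 CPM, and the lowest C1qa, at 1092 CPM, and imatinib 2 had the lowest Trdc and the highest C1qa of the imatinib libraries, at 850 and 2435 CPM. The part of these cell type markers in the member values was not tested. Gas5 made up 49.4%, 49.7% and 50.1% of member counts in imatinib 1, 2 and 3, and 53.2%, 48.5% and 46.6% in vehicle 1, 2 and 3.

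**Figure D2:**
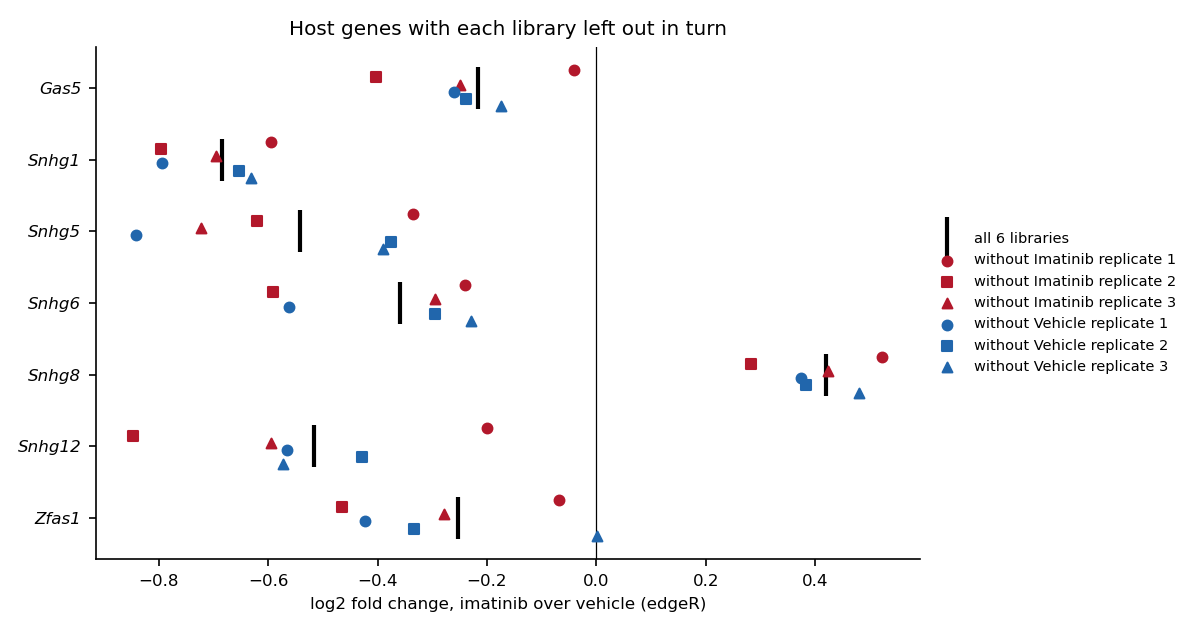
Log2 fold change of imatinib over vehicle (horizontal axis, edgeR) for the 7 tested host genes with all 6 libraries (black bar) and with each library left out in turn (red, an imatinib library left out; blue, a vehicle library left out). Snhg1 stays between -0.80 and -0.60, Snhg8 stays above 0, and Zfas1 reaches 0.00 without vehicle 3.

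Among other noncoding snoRNA host genes, Snhg15, Snhg16, Snhg17 and Snhg20 fell and Snhg18 rose. Of 13 on that list, 9 were tested, 4 were lower and 1 was higher, with a median log2 fold change of -1.15. Over all genes tested, 8.42% were lower and 6.15% higher. Snhg17 was at 6.46, 3.22 and 5.79 CPM in imatinib 1, 2 and 3, against 13.5, 24.7 and 19.1 in vehicle 1, 2 and 3, a log2 fold change of -1.89 ± 0.31 (SE, edgeR adjusted p = 0.011), and it passed with any single library left out. Snhg16 fell by 1.85 on the log2 scale (adjusted p = 0.023, at 0.940 CPM on imatinib and 3.40 on vehicle) and Snhg20 fell by 1.47 (adjusted p = 0.031, at 1.53 CPM on imatinib and 4.24 on vehicle). Snhg15, named after its value was seen as the fourth of the lower genes, fell by 1.27 (adjusted p = 0.032, at 5.11 CPM on imatinib and 12.3 on vehicle). Snhg18 rose by 1.92 (adjusted p = 0.038, at 3.46 CPM on imatinib and 0.913 on vehicle). These 4 calls were lost without imatinib 3, vehicle 2 or vehicle 3, and some of them also without imatinib 1 or vehicle 1, with adjusted p of 0.0501 to 0.117. Levels of 1 to 5 CPM correspond to few reads, and both the marker sums and the number of genes with any count, 19567 to 20669 on imatinib and 22390 to 23513 on vehicle, moved with these groups. Their part in these values was not tested.

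Most ribosomal protein genes, whose mRNAs are known as TOP mRNAs, rose under TMM scaling. Of 79 ribosomal protein genes, 71 were higher and 1 was lower, with a median log2 fold change of 0.49, on a background of 6.15% of genes higher, but scaled to the CD3 genes this median was -0.24 beside -0.72 over all genes. Rplp0, the stalk protein of the large subunit, averaged 2052 ± 106 CPM on imatinib and 1291 ± 86.8 on vehicle (SD, n = 3 each, log2 fold change 0.67, edgeR adjusted p = 0.010). Rps4x and Rps14 rose by 0.63 and 0.64 (adjusted p = 0.010 and 0.011). Rps10 was the lower one, at 1.13 CPM on imatinib and 3.35 on vehicle, a level far below that of Rplp0, and its adjusted p of 0.043 was lost with any library but imatinib 1 left out. Ribosomal protein genes have many near-identical copies, so that their counts are uncertain. The number of them higher was 6 without imatinib 3, 24 without vehicle 1, 12 without vehicle 2 and 6 without vehicle 3, while their median stayed between 0.44 and 0.54.

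On a background of 6.15% of genes higher and 8.42% lower, 14 of 16 other TOP mRNAs were higher and none lower under TMM scaling. Their median was 0.53. They included Eef1a1, the elongation factor that brings aminoacyl-tRNA to the ribosome (0.57, edgeR adjusted p = 0.020), Npm1, a nucleolar chaperone of ribosome assembly (0.56, adjusted p = 0.010), and Vim, the intermediate filament vimentin (0.86, adjusted p = 0.013), and scaled to the CD3 genes Eef1a1 and Npm1 turned to -0.17. Without imatinib 3, vehicle 2 or vehicle 3 the number higher was 3, 3 or 2. Of 24 protein-coding snoRNA hosts, which carry snoRNAs in the introns of translated mRNAs, 13 were higher and 3 lower, on the same background. Their median was 0.41, and 7 of the 24 values were below 0. Of these hosts, 11 are also among the ribosomal protein genes and 3, Eef2, Rack1 and Tpt1, among the other TOP mRNAs, so the lists are not separate evidence. Tpt1 and Rpsa, both TOP mRNAs, rose by 0.62 and 0.63 (adjusted p = 0.010 and 0.011). Taf1d, a subunit of the RNA polymerase I selectivity factor, fell by 0.76 (adjusted p = 0.032, lost with any library but vehicle 1 left out), and Nop56, a core protein of C/D box particles, fell by 0.57 (adjusted p = 0.011). The number of coding hosts higher was 1 without imatinib 3, 5 without vehicle 1, 2 without vehicle 2 and 0 without vehicle 3. The members and these lists come from the same libraries, so their values stand side by side and no test of the difference between lists was made.

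**Figure D3:**
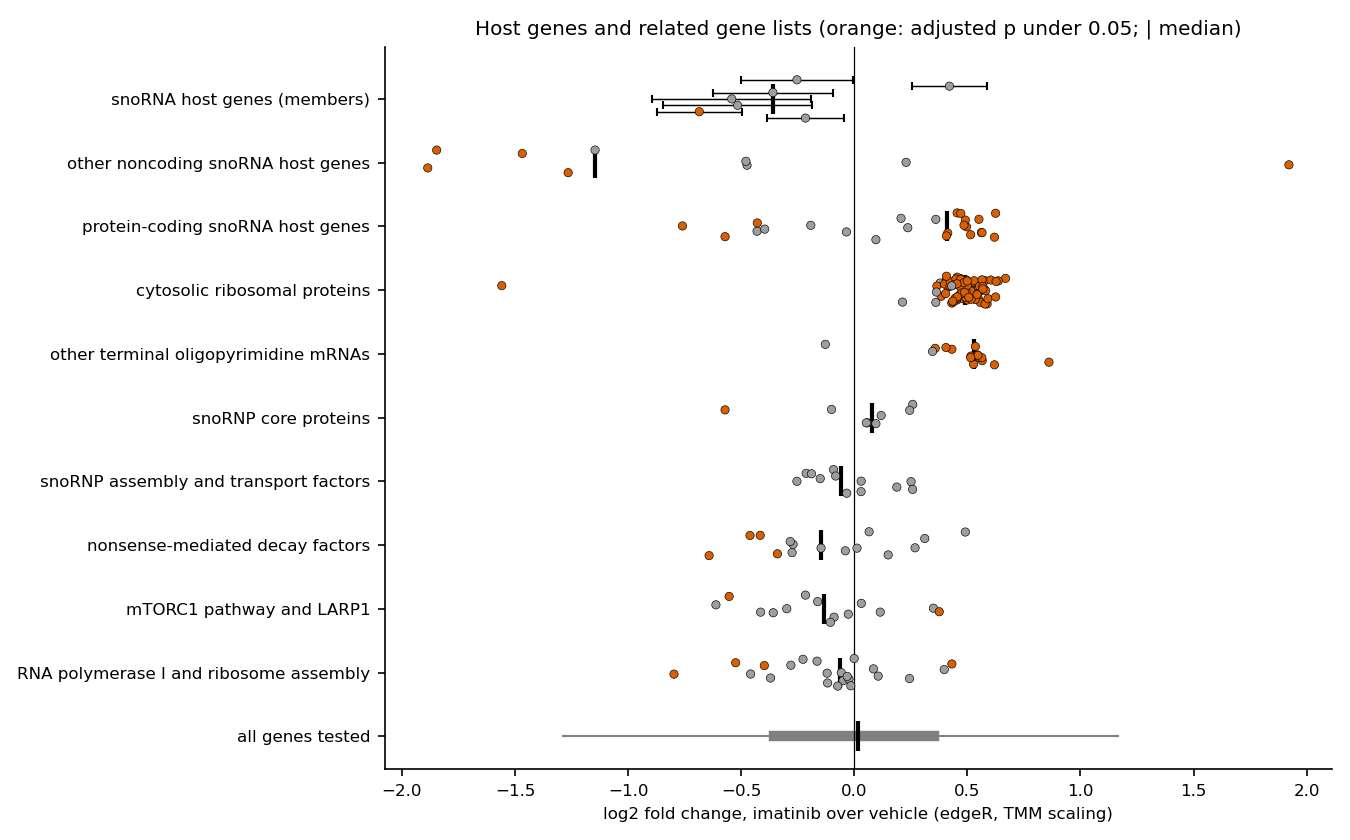
Log2 fold change of imatinib over vehicle (edgeR, TMM scaling) for the tested genes of 10 lists, each point a gene, orange at an adjusted p under 0.05, with standard errors for the members and a black bar at each median. The bottom row gives the 25th to 75th percentile (thick) and the 5th to 95th percentile (thin) of all 16621 genes. The member median of -0.36 and that of the other noncoding hosts at -1.15 lie left of 0, and the ribosomal protein median of 0.49 lies right of it.

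Set against ribosomal protein reads in the same library, a ratio that no scaling can move, all 7 tested members had lower means on imatinib. Gas5 had 87.3, 128 and 111 counts per 100000 ribosomal protein counts in imatinib 1, 2 and 3, against 168, 185 and 191 in vehicle 1, 2 and 3. Snhg1 had 11.1, 12.7 and 11.6 in imatinib 1, 2 and 3, against 22.7, 29.8 and 29.0 in vehicle 1, 2 and 3, so that its imatinib mean was 0.434 of its vehicle mean. The groups did not overlap for 5 of the 7, Gas5, Snhg1, Snhg6, Snhg12 and Zfas1 (exact two-sided permutation p = 0.1, the smallest that 3 against 3 allow, adjusted p = 0.14 over 7 ratios). They overlapped for Snhg5 (exact p = 0.2, adjusted p = 0.233) and for Snhg8 (exact p = 0.4, adjusted p = 0.4), whose mean ratio was 0.936 of that on vehicle. By the same ratio 53.3% of all genes tested lay lower with no overlap, and the median gene stood at 0.710 of vehicle, against 0.541 for the median member. The denominator itself was higher on imatinib, as given above. The ratio was chosen after the values were seen.

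**Figure D4:**
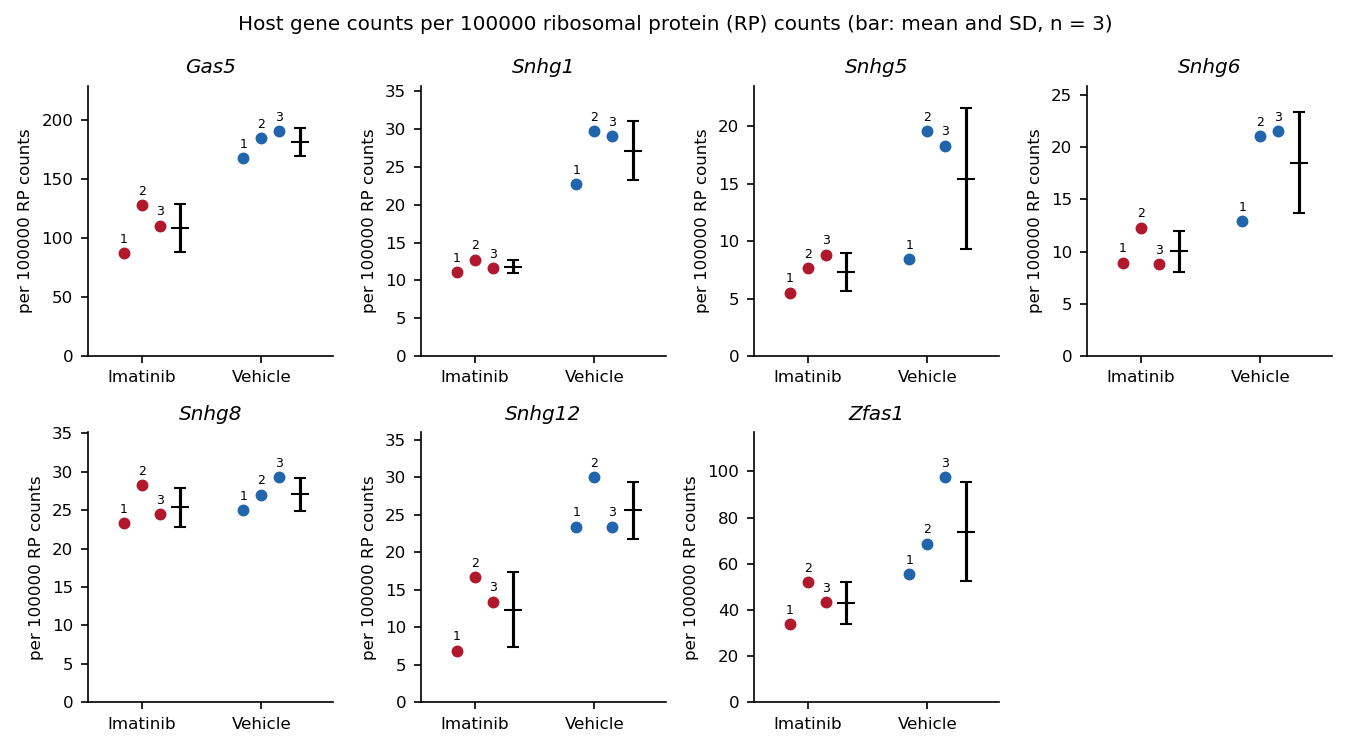
Counts of each tested host gene per 100000 counts of the 79 ribosomal protein genes (vertical axes from 0), imatinib libraries left of vehicle libraries, with replicate numbers and the mean with its SD (n = 3). Gas5 lies between 87.3 and 128 on imatinib and between 168 and 191 on vehicle, whereas Snhg5 and Snhg8 overlap.

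Among the proteins that make and receive snoRNAs, 1 passed the test. Of the 8 core proteins of snoRNA particles, Nop56 was lower, at 55.1 ± 2.64 CPM on imatinib and 81.8 ± 3.34 on vehicle (SD, n = 3 each), and the other 7 did not pass, with a list median of 0.08. Fbl, the methyltransferase fibrillarin, had a log2 fold change of 0.06 (edgeR adjusted p = 0.791). None of 12 tested assembly and transport factors passed, and their median was -0.06. Tcof1 and Nolc1, the nucleolar phosphoproteins of highest level there, had log2 fold changes of -0.21 (adjusted p = 0.261) and -0.08 (adjusted p = 0.677). No member of either list was higher, and over all genes tested 14.6% passed in either direction.

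Among 15 factors of nonsense-mediated decay, the pathway that removes many host exons, 4 were lower and none higher, with a median of -0.15, on a background of 8.42% of genes lower and 6.15% higher. Smg5, which recruits phosphatase and decay enzymes, fell by 0.64 on the log2 scale (edgeR adjusted p = 0.011) and passed with any single library left out. Upf1, the central helicase of the pathway, fell by 0.46 (adjusted p = 0.032), and Smg1, the kinase that phosphorylates it, fell by 0.42 (adjusted p = 0.040). Without single libraries the call of Smg1 was lost in each case and that of Upf1 in each case but the one without imatinib 2, with adjusted p of 0.0607 to 0.111.

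Among 14 genes of the mTORC1 pathway, Larp1, whose protein binds TOP tracts, fell by 0.55 (edgeR adjusted p = 0.020, and 0.0774, 0.0711 and 0.0702 without imatinib 3, vehicle 1 and vehicle 3). Eif4ebp2, a repressor of cap-dependent translation that mTORC1 inactivates, rose by 0.38 (adjusted p = 0.047), a call lost without any library but imatinib 2 and turned to -0.36 under CD3 scaling, and the other 12 did not pass. Of 22 genes of RNA polymerase I and ribosome assembly, 3 were lower and 1 was higher. Both 2 of 14 and 4 of 22 are shares near the 14.6% of all genes tested that passed in either direction. Myc, a transcription factor that drives ribosome production, fell by 0.80 (adjusted p = 0.012, and 0.0529 without imatinib 3). Polr1b fell by 0.52 and Mybbp1a fell by 0.40, while the polymerase subunit gene Polr1d rose by 0.43 (adjusted p = 0.040, 0.034 and 0.025). These 3 calls were each lost without at least 5 of the 6 libraries in turn, and Polr1d turned to -0.29 under CD3 scaling.

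Several members share a promoter region with a protein-coding gene on the other strand, and 2 of those partners fell. Over all genes tested, 8.42% were lower by the test and 20.2% lay apart below. Znfx1, an antiviral helicase whose start lies 81 bases from that of Zfas1, was at 111, 194 and 159 CPM in imatinib 1, 2 and 3, against 423, 329 and 444 in vehicle 1, 2 and 3. Its log2 fold change was -1.37 ± 0.21 (SE, edgeR adjusted p = 0.010), with no overlap, and the call held with any single library left out. Znfx1 had 5.29, 5.43 and 5.41 counts per Zfas1 count in imatinib 1, 2 and 3, against 15.8, 10.8 and 9.80 in vehicle 1, 2 and 3. The imatinib ratios lay close together and below all vehicle ratios (exact two-sided permutation p = 0.1, the smallest possible, adjusted p = 0.15 over 3 ratios). Opposite-strand Znfx1 exons cover 2.80% of Zfas1 exon bases.

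Zbtb37, a zinc finger gene whose start lies 427 bases from that of Gas5 and inside it, was at 9.72, 5.05 and 9.94 CPM in imatinib 1, 2 and 3, against 20.1, 23.8 and 21.4 in vehicle 1, 2 and 3. Its log2 fold change was -1.40 ± 0.25 (SE, edgeR adjusted p = 0.013, and 0.0502 without vehicle 2). There were 0.180, 0.0573 and 0.133 Zbtb37 counts per Gas5 count in imatinib 1, 2 and 3, against 0.247, 0.291 and 0.241 in vehicle 1, 2 and 3 (exact two-sided permutation p = 0.1, adjusted p = 0.15). Slc3a2, the heavy chain of amino acid transporters, starts 106 bases from Snhg1 and did not pass. It was at 150.2, 215 and 194 CPM in imatinib 1, 2 and 3, against 299, 209 and 186 in vehicle 1, 2 and 3, a log2 fold change of -0.31 (edgeR adjusted p = 0.331). Its counts per Snhg1 count overlapped between groups (exact p = 0.4). Whether the authors counted reads by strand is not given in the sources used here. Reads of overlapping antisense exons, as those of Znfx1 and Zfas1, therefore cannot be told apart. The exons of Gas5 and Snhg1 share 0% of their bases with another annotated gene on either strand, snoRNAs aside.

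**Figure D5:**
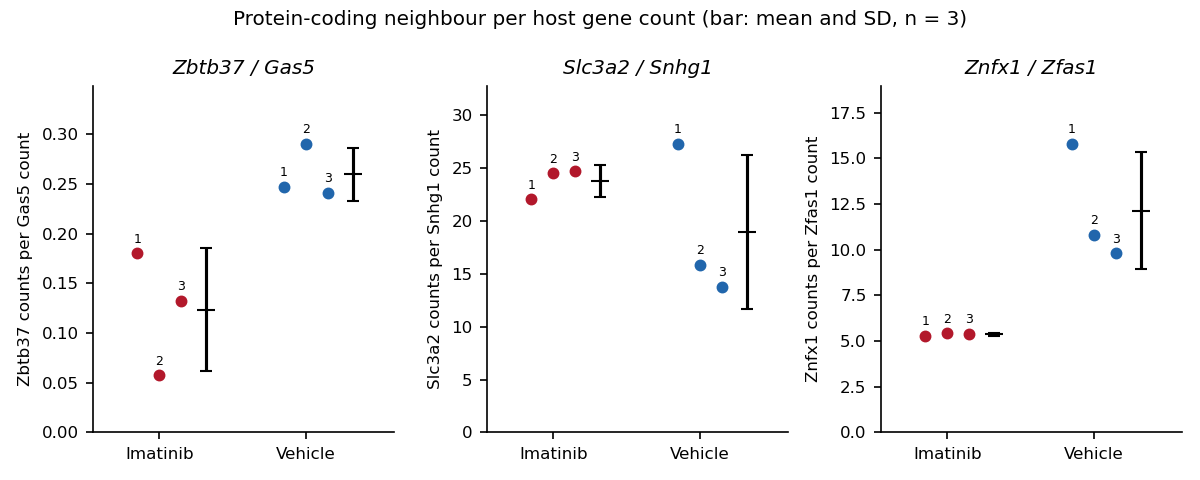
Counts of a protein-coding neighbour per count of the host gene at the same locus (vertical axes from 0), imatinib libraries left of vehicle libraries, with replicate numbers and the mean with its SD (n = 3). Znfx1 per Zfas1 lies between 5.29 and 5.43 on imatinib and between 9.80 and 15.8 on vehicle, Zbtb37 per Gas5 is lower on imatinib in all libraries, and Slc3a2 per Snhg1 overlaps.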

How the data were processed

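The authors aligned polyA RNA-seq reads to GRCm38 (mm10) with STAR and deposited raw read counts per gene from featureCounts. For the annotation, the strand setting and reads that map to several places the answer is the same: not given in the sources used here. Of 57332 rows, 3016 without a gene name (0.118% to 0.158% of counts) were left out, 1013 exact repeats were counted once and rows of 78 symbols were summed. The table's other 3 columns belong to no sample here and were left unread. Each library counts as 1 sample. The most similar pair differed by a chi-square of 34.5 per gene, which cannot show that the libraries came from separate mice.

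edgeR 4.0.16 (R 4.3.3), with its default filter, TMM scaling, robust quasi-likelihood tests and Benjamini-Hochberg adjustment over 16621 genes, compared imatinib with vehicle. Groups follow the treatment label. The procedure was tested on simulated data with known changes. The coefficient of variation between libraries was 29.1%, and the libraries held 21333897 to 25214210 counts. Alternatives were DESeq2 1.42.0, limma 3.58.1 voom, RLE factors, library totals, other filters and thresholds, a replicate block, each library left out, and scaling to CD3 counts. Removal of length and GC trends (known for 96.8% of genes) was added after seeing the data. Levels per kb, positions and snoRNA sequences use GENCODE M21, and start windows use RefSeq. Python 3.11.15, pandas 2.3.3 and matplotlib 3.10.9 made the tables and plots.

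Members and lists were chosen with earlier results of these data known. The text names all members, up to 4 called genes of each related list with the largest change (or the 2 of highest level where fewer than 2 were called), genes that overlap a member or start within 2 kb of one on the other strand, and the 5 genes most like the member mean. One gene that this rule takes is not reported here. Marker genes named beside the lists were chosen after their values were seen.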

Additional observations from a re-analysis of the deposited data

How the results depend on the processing

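One of the 7 tested host genes, Snhg1, passed with all 6 libraries. That number was 0 with the replicate number as a block, 0 with length and GC trends removed (Snhg1 adjusted p = 0.0592), 0 when a log2 fold change of 1 was also required, and 0 to 1 over the fits that left out 1 library each. It was 1 under DESeq2 (Snhg1 adjusted p = 0.0137), limma voom, RLE factors, library totals, both other filters and an adjusted p of 0.1. Scaled to the CD3 genes it was 6, all lower, beside 4813 of all 16621 genes called in either direction. There the median of all genes moved to -0.72 and that of the members to -1.08. Of 105 member values under alternatives, 103 kept their direction. The exceptions were Snhg8 at -0.30 under CD3 scaling and Zfas1 at 0.00 without vehicle 3. Called genes reversed only under CD3 scaling: Rpsa -0.11, Tpt1 -0.11, Rplp0 -0.066, Rps14 -0.094, Rps4x -0.10, Eef1a1 -0.17, Npm1 -0.17, Eif4ebp2 -0.36 and Polr1d -0.29. Over all genes the count of calls was 2421, with 3658 by DESeq2, 610 with the replicate block, 733 to 2951 with 1 library left out, 4813 under CD3 scaling, 3937 at an adjusted p of 0.1 and 844 with a log2 fold change over 1. Among 79 ribosomal protein genes 72 were called, with 0 under the block and 1 under CD3 scaling, among 16 other TOP mRNAs 14, with 1 and 0, and among 24 coding hosts 16, with 0 and 5. Of the other noncoding hosts 5 were called, with 0 under the block, 3 by limma voom and 2 under the stricter filter. Of nonsense-mediated decay factors 4 were called and of RNA polymerase I genes 4, with 0 of each under the block. Under CD3 scaling these numbers were 7 and 8. Of mTORC1 genes 2 were called, with 0 under the block and 7 under CD3 scaling. The calls under CD3 scaling stand beside 4813 of all 16621 genes. Same-numbered libraries did not deviate together (correlations of deviations -0.24, -0.08 and -0.08). With 3 libraries per group these values cannot decide whether the numbers pair the libraries. The calls lost under the block therefore stay a limit of these results. Snhg3 had 4 counts in all and was not compared.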

Other observations

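The 5 genes outside the members whose log2 CPM over the 6 libraries was most like the mean standardised member pattern were Zfp830 (Pearson r = 0.988), Gm20604 (0.987), Bend4 (0.983), Mms22l (0.983) and Mir8099-2 (0.981). All values come from the same 6 libraries, the genes were picked as the highest among all tested, and none of the 5 passed edgeR's test of imatinib against vehicle. Their levels were low, from 0.934 CPM on imatinib and 1.49 on vehicle for Gm20604 to 12.5 on imatinib and 14.1 on vehicle for Zfp830.

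The table has 151 symbols of snoRNAs and small Cajal body RNAs, counted here in libraries made from polyA RNA. They held 61, 127 and 122 counts in imatinib 1, 2 and 3, against 183, 335 and 248 in vehicle 1, 2 and 3, from 12, 12 and 19 symbols with any count on imatinib and 42, 44 and 30 on vehicle. The groups did not overlap in either number. Over the whole table, genes with any count were also fewer on imatinib, with no overlap. They numbered 19567 to 20669 on imatinib and 22390 to 23513 on vehicle. What the reads of the 151 symbols come from was not tested.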
